A study of Mus musculus with 11 samples.

Results

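Long-term haematopoietic stem cells (LT-HSCs) that carry the sialomucin endomucin (EMCN) on their surface were compared, gene by gene, with LT-HSCs of the same mouse that do not. The comparison used 6 of the 11 libraries of the series, the EMCN+ and EMCN- libraries of mice 1, 2 and 4, matched by the mouse number in the labels. Mouse 3 had an EMCN+ library without an EMCN- partner and stayed outside the test, and the granulocyte-monocyte progenitor libraries were not used. All mice were female C57BL/6NTac animals, for which the labels name no genetic change and no treatment, and their age was not given in the sources used here. Hind leg bones of each mouse were crushed, lineage-positive marrow cells were removed, and flow cytometry then collected live cells of the LSK gate (lineage-negative, Sca-1+ and c-Kit+) that were CD150+ and CD48-. Both fractions share this gate and differ in the stain for EMCN. Each library held bulk RNA of 3000 to 5000 sorted cells, so fewer cells of a kind and less RNA per cell cannot be told apart in any result that follows. The comparison asked how the transcripts of stem cells with and without EMCN differ within an animal.

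LT-HSCs are the rare marrow cells that can rebuild the whole blood system over a lifetime. Most of them rest outside the cell cycle, with low protein synthesis and little use of oxidative phosphorylation, and they enter the cycle through kinases such as CDK6 before they give rise to committed progenitors. The CD150+ CD48- LSK gate enriches for them and still holds cells that differ in dormancy and in their leaning towards platelets, lymphocytes or balanced output. Endomucin is known from venous and capillary endothelium, where it keeps white cells from adhering, and it is found on embryonic and adult blood stem cells.

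Totals ran from 3629234 to 11141483 estimated counts per library, and 1 count was worth 0.0842 to 0.287 CPM, the unit of level used throughout, which scales counts by the TMM-adjusted library total. All 14 LT-HSC markers of the marker list were detected in each of the 6 libraries. They summed to 2531, 2949 and 2805 CPM in EMCN+ and 2109, 2211 and 2314 CPM in EMCN- cells of mice 1, 2 and 4, with no overlap. Of the 14, 6 are among the genes called higher below. The other 8 summed to 1147, 1322 and 1174 CPM against 1173, 1114 and 1194 CPM, which overlap. The summed markers of B and plasma cells (8.03 to 18.4 CPM), stroma (96.7 to 129.6 CPM) and mast cells and basophils (233 to 273 CPM) overlapped between fractions. Each of these sums came mostly from a single gene, Cd79b, Runx2 and Gata2 in that order. Gata2 had 803 to 3056 counts, and no other mast cell or basophil marker had more than 16. Gata2 is also in the LT-HSC marker list, so the last sum is not a measure of mast cell RNA. The sums of other lineages are given beside the results they touch. The EMCN+ library of mouse 1 stood apart: thinned to the smallest total it held 22528 genes with at least 1 count, against 18972 to 20019 in the other 5 libraries. The short noncoding RNAs Rmrp, Rpph1, Rn7sk, Rn7s1 and Rn7s2 made up 3.87, 3.72 and 2.25% of the counts in EMCN+ cells of mice 1, 2 and 4 and 4.18, 5.31 and 5.19% in EMCN- cells, a higher share in EMCN- cells of every pair.

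A gene is called changed here when edgeR's quasi-likelihood test with the mouse as a block gave a Benjamini-Hochberg adjusted p under 0.05 over all genes tested. Of 13435 genes tested, 908 (6.76%) changed, of which 380 (2.83%) were higher and 528 (3.93%) lower in EMCN+ cells. In simulated counts of this comparison with 200 genes changed, 14.5% of the calls were unchanged genes, against a nominal 5%. With scaling by library totals alone, which moved the median gene to 0.11 on the log2 scale from -0.01, 571 genes were higher and 161 lower, so that 78% of the calls were higher instead of 41.9%. Most changes were small. The median log2 fold change was 0.70 among genes called higher and -0.53 among genes called lower, and 105 and 37 genes passed 1 in size. Every library of one fraction lay above every library of the other for 86.1% of the genes called higher and 87.9% of those called lower, against 20.8% of all genes tested. All 528 genes called lower had the same sign in the 3 pairs, as did 379 of the 380 called higher, against 42.2% of all genes tested. The called genes were chosen by a test on these same libraries, so high shares follow from that choice.

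**Figure D1:**
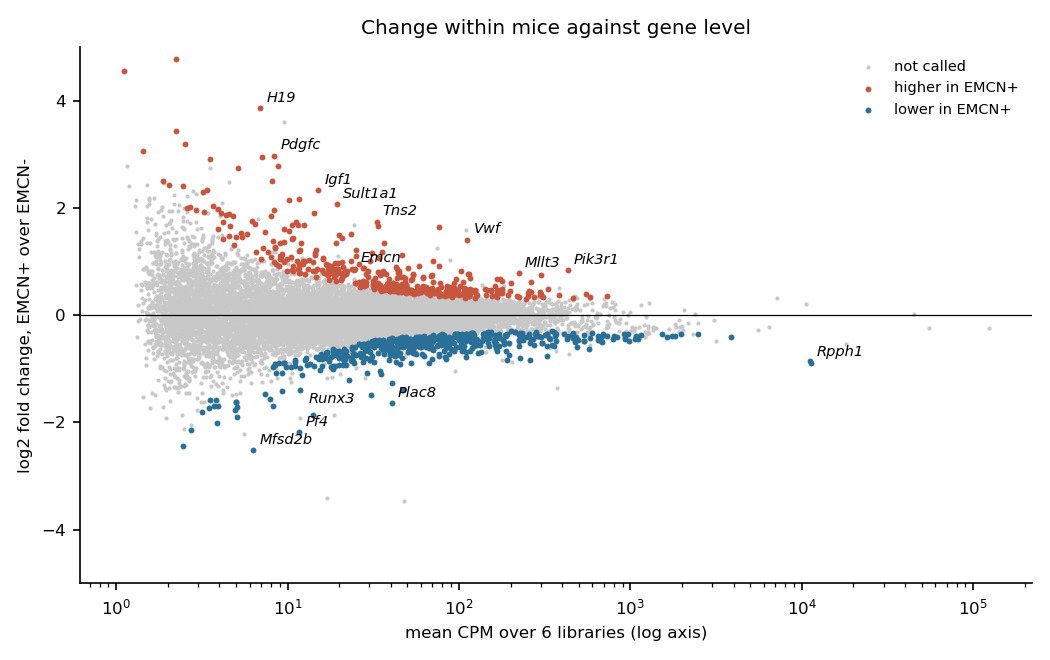
Log2 fold change of EMCN+ over EMCN- LT-HSCs within mice (vertical axis) against the mean CPM over the 6 libraries (horizontal log axis) for the tested genes; red points are called higher, blue points lower, grey points not called. The 4 genes listed at 0 in every library of one fraction lie beyond the vertical axis and are not drawn. Genes called higher reach larger changes at low levels, and genes called lower include several at very high levels such as Rpph1.

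The count of changed genes rested on the pairing and on each animal. Without the block the same 6 libraries gave 185 genes, and DESeq2 with the block gave 432. Leaving out mouse 4 left 141 genes, leaving out mouse 1 left 404 and leaving out mouse 2 left 674. In all, 107 genes (61 higher and 46 lower) were called whichever mouse was left out. Among the higher genes of this group were Tns2, Vwf, Plcl1, Pdgfc, Igf1, Pik3r1, Mllt3, Procr and Mecom, and among the lower ones Plac8, Itga2b, Runx3, Slc22a3, Muc13, Pf4, Cd34 and Rpl27.

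Each mouse was also set against the choice made from the other two. The 100 genes per direction with the smallest p in mice 2 and 4 had the same sign in mouse 1 in 99% (higher) and 84% (lower), where 50.2% and 49.8% of all genes had that sign. For mouse 2 the shares were 86% and 96%, and for mouse 4 they were 94% and 96%. The median log2 ratio of the higher sets in the mouse left out was 0.93, 0.77 and 0.64 in mice 1, 2 and 4, and that of the lower sets was -0.41, -0.57 and -0.61. The EMCN+ library of mouse 3 lay above all 3 EMCN- libraries for 319 of the 380 genes called higher (83.9%), against 29% of all genes tested. It lay below all 3 for 436 of the 528 called lower (82.6%), against 29.1%. That comparison shares the EMCN- libraries with the test.

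The gene of the sorted protein was looked at first. Emcn (chromosome 3 from 137341067 to 137432185 in GRCm38) stood at 30.3, 33.9 and 30.6 CPM in EMCN+ cells of mice 1, 2 and 4 and at 15.4, 17.3 and 19.8 CPM in EMCN- cells. All 3 EMCN+ libraries lay above all 3 EMCN- libraries, and EMCN- cells still held Emcn transcripts. The EMCN+ library of mouse 3, scaled with the others, stood at 32.2 CPM, also above them. The log2 difference was 0.87 ± 0.16 (SE, n = 3 pairs; edgeR adjusted p = 0.0037). Of the other surface genes of the sort, Cd48, the SLAM receptor used to exclude progenitors, stood at 1.44, 0.505 and 1.18 CPM in EMCN+ and 6.69, 2.95 and 3.73 CPM in EMCN- cells. Its level was low in all libraries and lower in EMCN+ cells of every pair, with a log2 fold change of -2.14 ± 0.56 (adjusted p = 0.0257). Cd34, which is lost by the most dormant adult mouse stem cells and was not in the antibody panel, fell by 0.54 on the log2 scale, from 196 ± 8.67 CPM (SD, n = 3) to 134 ± 9.05 CPM (adjusted p = 0.00138). Other genes of the shared gate did not pass. Slamf1 (CD150) differed by 0.11 ± 0.15, Kit by 0.04 ± 0.11 and Ly6a (Sca-1) by 0.55 ± 0.19, the last with 22.3, 32.2 and 30.2 CPM in EMCN+ and 11.5, 32.0 and 16.9 CPM in EMCN- cells, which overlap. Ptprc (CD45), Itgam and Fcgr2b did not pass either, with log2 differences of -0.01, 0.40 and -1.17. Cd48 no longer passed without mouse 1 (adjusted p = 0.198). Cd48 lost the call without mouse 2 (adjusted p = 0.0747). Emcn and Cd48 did not pass without mouse 4 (adjusted p = 0.0578 and 0.125). Cd34 no longer passed with library totals alone (adjusted p = 0.0661).

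The genes with the strongest evidence of a rise were Tns2, Vwf, Plcl1, Sult1a1 and Ahnak, by the smallest p. Tns2 (chromosome 15 from 102100413 to 102116401) encodes tensin 2, an adaptor that links integrins to the actin skeleton. It stood at 38.7, 67.4 and 47.1 CPM in EMCN+ and 13.4, 17.1 and 14.6 CPM in EMCN- cells of mice 1, 2 and 4. The lowest EMCN+ library lay well above the highest EMCN- library, and the log2 fold change was 1.74 ± 0.15 (edgeR adjusted p = 1.6e-06). Vwf (chromosome 6 from 125546774 to 125686679), the gene of von Willebrand factor and a mark of platelet-biased stem cells, stood at 133, 215 and 142 CPM against 54.2, 63.3 and 64.3 CPM. Its EMCN- values were nearly alike in the 3 mice while mouse 2 was highest among EMCN+ cells, and its log2 fold change was 1.41 ± 0.12 (adjusted p = 2.39e-06). Plcl1, a phospholipase C-like protein without enzyme activity, rose by 1.66 ± 0.15 from 15.8 ± 0.980 CPM. Sult1a1, a sulfotransferase gene, rose by 2.07 ± 0.20, with 20.5, 38.7 and 34.2 CPM in EMCN+ and 4.09, 8.25 and 10.6 CPM in EMCN- cells. Ahnak, a giant scaffold protein of the plasma membrane, rose by 1.64 ± 0.14. These 5 genes passed whichever mouse was left out, with the largest adjusted p at 0.0222 without mouse 4. 

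**Figure D2:**
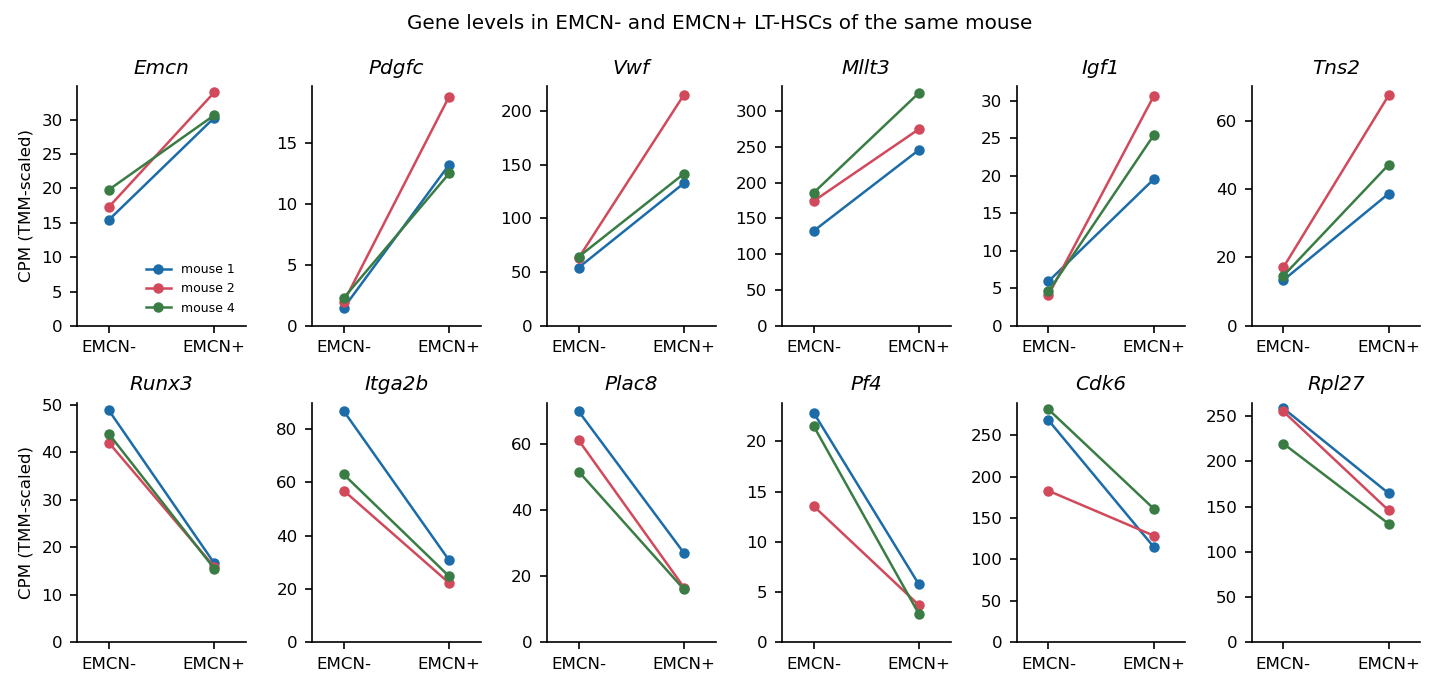
TMM-scaled CPM of 12 genes in EMCN- and EMCN+ LT-HSCs; each line joins the 2 fractions of a mouse, and each vertical axis starts at 0. The 6 genes in the upper row are higher and the 6 in the lower row are lower in the EMCN+ fraction of all 3 mice.

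Growth factor genes held several of the largest rises. The gene lists here and below were chosen with earlier results of these data known. Their shares and medians may therefore partly follow from the choice of members. Of 30 tested genes of growth factors and their receptors 9 rose and 1 fell (33.3% called, against 6.76% of all genes). Their median log2 fold change was 0.47, against -0.01 over all genes tested. Without mouse 4, 5 of the 9 were called higher. Among the ligands, Pdgfc, a platelet-derived growth factor, stood at 13.2, 18.8 and 12.5 CPM in EMCN+ and 1.49, 1.97 and 2.30 CPM in EMCN- cells, a log2 fold change of 2.97 ± 0.31 (edgeR adjusted p = 1.63e-05). Igf1, insulin-like growth factor 1, stood at 19.6, 30.7 and 25.4 against 5.94, 4.13 and 4.59 CPM (2.33 ± 0.25, adjusted p = 1.83e-05). Ndnf, a secreted factor first known from neurons, stood at 11.04, 20.5 and 14.8 against 2.41, 2.55 and 1.43 CPM (2.78 ± 0.31, adjusted p = 3.13e-05). In each of these the fractions were far apart in all 3 mice. Igf2, the fetal insulin-like growth factor, reached 5.52, 10.4 and 11.3 CPM against 1.67, 1.38 and 0.574 CPM (2.75 ± 0.44, adjusted p = 0.0011), lowest among EMCN+ cells in mouse 1. On the receptor side, Igf2r, which takes up and degrades IGF2, rose by 0.92 ± 0.12, and Insr and Igf1r, the receptors of insulin and IGF1, rose by 0.53 ± 0.11 and 0.44 ± 0.10. Fgfr3, a fibroblast growth factor receptor, rose by 1.66 ± 0.40. The ligand gene Fgf3 fell by 2.44 on the log2 scale at a very low level, with 0.720, 0.674 and 0.942 CPM in EMCN+ and 4.46, 5.31 and 2.58 CPM in EMCN- cells. Igf1r, Fgfr3 and Fgf3 lost the call without mouse 1 (adjusted p from 0.0528 for Fgfr3 to 0.123 for Fgf3). Igf1r and Fgf3 did not pass without mouse 2 (adjusted p = 0.121 and 0.136). Igf2, Insr, Igf1r, Fgfr3 and Fgf3 no longer passed without mouse 4 (adjusted p from 0.0638 for Insr to 0.146 for Fgfr3).

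Imprinted genes, which are expressed from the copy of 1 parent and include several regulators of stem cell quiescence, were among the largest rises. Of 33 tested members 7 rose and 0 fell (21.2% called, against 6.76% of all genes), with a median of 0.21. Without mice 1, 2 and 4 in turn 6, 8 and 4 rose. H19 (chromosome 7 from 142575529 to 142578143), the maternally expressed noncoding RNA beside Igf2, stood at 12.01, 17.2 and 9.66 CPM in EMCN+ and 1.86, 0.393 and 0.287 CPM in EMCN- cells. Its log2 fold change of 3.86 ± 0.45 (edgeR adjusted p = 0.000113) was the largest among the genes named by size. In EMCN- cells of mice 2 and 4 H19 lay under the level of 3 counts, 0.59 and 0.861 CPM. The size of its rise therefore rests on few counts. Meg3 and Rian, noncoding RNAs of the Dlk1-Dio3 locus, rose by 2.95 ± 0.44 and 1.74 ± 0.25. Meg3 stood at 6.84, 12.1 and 18.6 CPM against 0.186, 3.34 and 1.43 CPM, so its levels spread widely within each fraction while the fractions did not overlap. Its EMCN- level in mouse 1 was under that of 3 counts (0.557 CPM). Cdkn1c, which encodes p57, a brake on cyclin-dependent kinases that holds stem cells out of the cycle, stood at 39.6, 37.1 and 29.0 CPM against 15.4, 19.8 and 23.2 CPM. It rose by 0.88 ± 0.18 (adjusted p = 0.00768), least in mouse 4. Grb10, an adaptor that dampens insulin receptor signalling, rose by 0.48 ± 0.09 (adjusted p = 0.00357). Igf2 and Igf2r, given above, were the other 2. Cdkn1c lost the call without mouse 1 (adjusted p = 0.0889). Igf2, Meg3 and Grb10 did not pass without mouse 4 (adjusted p from 0.0556 for Grb10 to 0.0875 for Meg3).

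**Figure D3:**
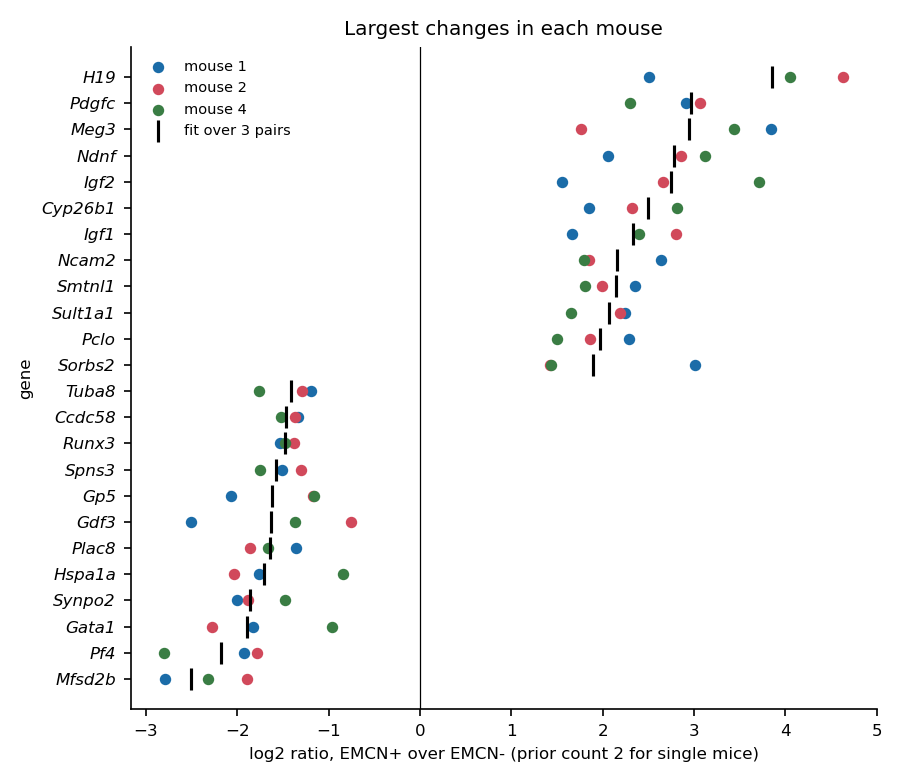
Log2 ratio of EMCN+ over EMCN- LT-HSCs in each mouse (coloured points) and in the fit over the 3 pairs (black bars) for the 12 largest increases and 12 largest decreases named by rule. The ratios of the single mice use a prior count of 2 and so lie nearer 0 than the fit for genes with few counts; all 3 points of each gene lie on the same side of 0.

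Among the other large rises, Cyp26b1, which breaks down retinoic acid, stood at 6.84, 13.1 and 22.1 CPM in EMCN+ and 1.67, 2.36 and 2.87 CPM in EMCN- cells (2.50 ± 0.32, edgeR adjusted p = 0.000108). Mouse 4 was highest in both fractions. Ncam2, a neural cell adhesion molecule, rose by 2.16 ± 0.26, and Smtnl1, a smoothelin-like actin-binding protein, by 2.15 ± 0.26 with little spread among EMCN+ libraries (16.5 ± 1.68 CPM, SD, n = 3). Pclo, a scaffold of the presynaptic zone, rose by 1.97 ± 0.29, and Sorbs2, an adaptor of focal adhesions, by 1.90 ± 0.29. Among abundant genes, Pik3r1, the regulatory subunit of PI3 kinase, rose from 309 ± 34.4 to 552 ± 71.0 CPM (0.84 ± 0.09, adjusted p = 2.52e-05) and also passed without each mouse. Numa1, Prrc2c, Smarca2, Hlf and Rnf213 rose by 0.33 to 0.39 on the log2 scale. Numa1, Prrc2c, Smarca2, Hlf and Rnf213 no longer passed without mouse 1 (adjusted p from 0.171 for Prrc2c to 0.267 for Numa1). Numa1, Prrc2c, Smarca2, Hlf and Rnf213 lost the call without mouse 2 (adjusted p from 0.0742 for Smarca2 to 0.248 for Numa1). Sorbs2, Numa1, Prrc2c, Smarca2, Hlf and Rnf213 did not pass without mouse 4 (adjusted p from 0.0594 for Sorbs2 to 0.152 for Hlf). Rnf213 no longer passed with the length and GC correction (adjusted p = 0.273). Hlf lost the call with library totals alone (adjusted p = 0.0501).

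Stem cell identity genes rose as a group of small changes with a few large ones. Of 43 tested members 15 rose and 0 fell (34.9% called, against 6.76% of all genes). Of the 43, 39 had a positive log2 fold change and the median was 0.33. In the 3 mice the median log2 ratio was 0.39, 0.35 and 0.28. Mllt3, a chromatin reader that sustains stem cell self-renewal, stood at 246, 275 and 325 CPM in EMCN+ and 132, 174 and 186 CPM in EMCN- cells (0.78 ± 0.09, edgeR adjusted p = 6.44e-05). Fgd5, a guanine exchange factor whose locus marks stem cells, stood at 135, 166 and 131 against 83.6, 99.2 and 82.9 CPM (0.70 ± 0.09, adjusted p = 0.000208). The lowest EMCN+ library exceeded the highest EMCN- library for both genes. Procr, the endothelial protein C receptor also called EPCR, rose by 1.16 ± 0.17, and Mecom, the transcription factor EVI1 needed for self-renewal, rose by 0.63 ± 0.09. Neo1, neogenin, rose by 1.35 ± 0.24, and Socs2, an inhibitor of cytokine signalling, by 0.80 ± 0.14. Jam2, Trim47, Cd82, Ifitm1, Erg and Hlf also rose, as did Vwf and Sult1a1. Without mouse 4 the list kept 7 members called higher. The endothelial marker list, which shares genes with this cell type, is given with its values further on. Jam2, Cd82, Ifitm1, Erg and Hlf did not pass without mouse 1 (adjusted p from 0.0769 for Jam2 to 0.27 for Ifitm1). Cd82, Erg and Hlf no longer passed without mouse 2 (adjusted p from 0.0589 for Erg to 0.0902 for Cd82). Neo1, Socs2, Jam2, Trim47, Cd82, Ifitm1, Erg and Hlf lost the call without mouse 4 (adjusted p from 0.0588 for Trim47 to 0.152 for Hlf). Hlf did not pass with library totals alone (adjusted p = 0.0501).

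Of 31 tested quiescence regulators 6 rose and 1 fell (22.6% called, against 6.76% of all genes), and their median was 0.09, against -0.01 over all genes tested. Gfi1, a repressor that limits stem cell division, stood at 10.9, 11.03 and 13.2 CPM in EMCN+ and 2.97, 4.91 and 6.03 CPM in EMCN- cells (1.38 ± 0.29, edgeR adjusted p = 0.0067). Every EMCN+ library lay above every EMCN- library. Egr1 and Zfp36, which also belong to the immediate early genes, rose by 0.48 ± 0.11 and 0.58 ± 0.15, and the transcription factor gene Foxo1 by 0.63 ± 0.17. The EMCN+ library of mouse 3, outside the test, went against the rise of Egr1. It stood at 37.4 CPM, below all EMCN- libraries scaled with it (47.2, 49.6 and 51.9 CPM). For Zfp36 it stood at 27.1 CPM, within the EMCN- range of 22.8 to 28.0 CPM. For Gfi1 and Cdkn1c it lay above all EMCN- libraries. Cish, a cytokine-induced inhibitor of STAT signalling, rose by 0.45 ± 0.13, and Cdkn1c was the sixth. Rbl1, a pocket protein of the retinoblastoma family, fell by 0.37. These calls were fragile: without mouse 1 as without mouse 4 a single member stayed called. Gfi1, Egr1, Zfp36, Cish, Cdkn1c and Rbl1 no longer passed without mouse 1 (adjusted p from 0.0651 for Gfi1 to 0.438 for Rbl1). Foxo1 lost the call without mouse 2 (adjusted p = 0.276). Gfi1, Egr1, Zfp36, Foxo1, Cish and Rbl1 did not pass without mouse 4 (adjusted p from 0.092 for Gfi1 to 0.24 for Cish). Egr1, Foxo1 and Cish no longer passed with the length and GC correction (adjusted p from 0.0651 for Egr1 to 0.124 for Cish). Rbl1 lost the call with library totals alone (adjusted p = 0.348).

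Genes of entry into the cycle and of early progenitors fell. Of 20 tested members of that list 10 fell and 0 rose (50% called, against 6.76% of all genes), with a median of -0.38. Cdk6, the kinase whose level sets how fast a stem cell leaves quiescence, stood at 115, 129 and 161 CPM in EMCN+ and 268, 183 and 281 CPM in EMCN- cells of mice 1, 2 and 4. The fractions did not overlap and the pair of mouse 2 differed least, with a log2 fold change of -0.84 ± 0.12 (edgeR adjusted p = 0.0013). Its relative Cdk4 fell by 0.38 and the cyclin gene Ccne2 by 1.02 on the log2 scale (adjusted p = 0.0231 and 0.00477). Plac8, a gene of early lymphoid and myeloid progenitors, stood at 27.0, 16.6 and 16.0 against 69.8, 61.1 and 51.7 CPM (-1.64 ± 0.14, adjusted p = 1.6e-06). Myc, the growth-promoting transcription factor, fell by 0.41 (adjusted p = 0.0127), with values that overlapped between fractions. Cd34, Cd48, Spns3 and Nkg7 fell too. The list had 5, 6 and 3 genes called lower without mice 1, 2 and 4 in turn. Cdk4, Ccne2, Myc, Cd48 and Nkg7 did not pass without mouse 1 (adjusted p from 0.0735 for Ccne2 to 0.198 for Cd48). Cdk4, Myc, Cd48 and Nkg7 no longer passed without mouse 2 (adjusted p from 0.0747 for Cd48 to 0.156 for Cdk4). Cdk6, Cdk4, Ccne2, Myc, Cd48, Spns3 and Nkg7 lost the call without mouse 4 (adjusted p from 0.0599 for Myc to 0.182 for Nkg7). Cdk4, Myc and Cd34 did not pass with library totals alone (adjusted p from 0.0661 for Cd34 to 0.29 for Cdk4).

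Of 53 tested genes of DNA replication and S phase, 52 had a negative log2 fold change. Their median was -0.30, and 12 fell and 0 rose (22.6% called, against 6.76% of all genes). Dut, the dUTPase that keeps uracil out of DNA, stood at 61.1, 50.5 and 52.8 CPM in EMCN+ and 94.4, 80.6 and 80.9 CPM in EMCN- cells (-0.64 ± 0.11, edgeR adjusted p = 0.0013). Orc6 and Gmnn, an origin recognition subunit and the licensing inhibitor geminin, fell by 0.88 and 0.94 on the log2 scale. Pcna, the sliding clamp, and Tyms and Tk1, of nucleotide supply, fell by 0.41, 0.48 and 0.86. The clamp loader genes Rfc2, Rfc4 and Rfc5 fell too. The helicase genes Mcm6, Mcm7 and Mcm5 fell by 0.42, 0.37 and 0.33. Mcm6 stood at 339, 280.2 and 243 CPM against 426, 365 and 354 CPM, which do not overlap. The 12 genes were reduced to 1 without mouse 4, Dut with an adjusted p of 0.0473. The list had 5 called genes without mouse 1 and 13 without mouse 2, and 15 with the length and GC correction. It had 4 with library totals alone and 2 without the mouse block. Pcna, Tyms, Rfc2, Rfc4, Rfc5, Mcm6, Mcm7 and Mcm5 no longer passed without mouse 1 (adjusted p from 0.0907 for Rfc2 to 0.228 for Tyms). Tyms, Tk1 and Mcm5 lost the call without mouse 2 (adjusted p from 0.0547 for Tyms to 0.163 for Mcm5). Orc6, Gmnn, Pcna, Tyms, Tk1, Rfc2, Rfc4, Rfc5, Mcm6, Mcm7 and Mcm5 did not pass without mouse 4 (adjusted p from 0.096 for Orc6 to 0.238 for Rfc4). Tyms and Rfc4 no longer passed with the length and GC correction (adjusted p = 0.059 and 0.0587). Pcna, Tyms, Rfc2, Rfc4, Rfc5, Mcm6, Mcm7 and Mcm5 lost the call with library totals alone (adjusted p from 0.0982 for Rfc4 to 0.418 for Mcm5).

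Many S phase genes are driven by E2F factors, so promoter windows were searched for the letters TTTCCCGC, TTTGGCGC, TTTCGCGC and TTTGCCGC on both strands, where matches may overlap. The windows hold 250 bases before to 50 bases after each start of RefSeq genes on GRCm38.p6. At least 1 match was present in 34% of 50 windows of the S phase list, 7.79% of 475 windows of genes called lower, 1.02% of 394 of genes called higher and 4.08% of 12024 windows of all tested genes. Of the 12 S phase genes called lower, 10 had a window, and Gmnn and Rfc2 had none. Among the 11 windows of these 10 genes, 3 had a match, those of Mcm6, Mcm7 and Mcm5. A match is a description of the letters and not a bound site. These 3 stretches are shown because their windows had a match, so the matches in them follow from that choice. They are printed on the strand of the gene, with the matches in capitals, from chr1:128359736-128359835 on the minus strand, chr5:138171969-138172068 on the minus strand and chr8:75109336-75109435 on the plus strand. The Mcm7 window held a second match at position 17 after the start, outside the stretch printed.
Mcm6: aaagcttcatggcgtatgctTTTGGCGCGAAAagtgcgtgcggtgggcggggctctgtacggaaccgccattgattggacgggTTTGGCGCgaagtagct
Mcm7: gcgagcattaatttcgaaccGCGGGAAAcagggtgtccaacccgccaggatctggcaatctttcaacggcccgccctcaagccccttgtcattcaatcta
Mcm5: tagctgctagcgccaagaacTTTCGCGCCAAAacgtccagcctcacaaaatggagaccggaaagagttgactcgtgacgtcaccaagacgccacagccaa

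Genes of G2 and mitosis were called at a share near that of all genes (6.35% against 6.76%). Of 63 tested members 4 fell and 0 rose, 47 had a negative log2 fold change and the median was -0.17. The median log2 ratio was -0.16, 0.17 and -0.35 in mice 1, 2 and 4, so mouse 2 went the other way. The list had 2, 7 and 1 lower calls without mice 1, 2 and 4, and 1 with library totals alone. The 4 genes were H2afz, a replacement histone, Hmgb2, a chromatin protein, Stmn1, which destabilises microtubules, and Ckap2, a spindle protein. H2afz stood at 100.5, 63.3 and 82.9 CPM in EMCN+ and 153, 126 and 135 CPM in EMCN- cells (-0.77 ± 0.10, edgeR adjusted p = 0.000188) and passed without each mouse. Hmgb2 fell by 0.52 and Stmn1 by 0.47. Ckap2 fell by 0.71 (adjusted p = 0.0478). Stmn1 and Ckap2 did not pass without mouse 1 (adjusted p = 0.0544 and 0.137). Hmgb2, Stmn1 and Ckap2 no longer passed without mouse 4 (adjusted p from 0.0743 for Hmgb2 to 0.271 for Ckap2). Ckap2 lost the call with the length and GC correction (adjusted p = 0.0758). Hmgb2, Stmn1 and Ckap2 did not pass with library totals alone (adjusted p from 0.0938 for Hmgb2 to 0.151 for Stmn1).

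Replication-dependent histone genes fell furthest as a group. Their transcripts end in a stem-loop in place of a poly(A) tail and are made in S phase. Of 61 tested members 36 fell and 0 rose (59% called, against 6.76% of all genes). Of the 61, 59 lay below 0 and the median was -0.66. In mice 1, 2 and 4 the median log2 ratio was -0.37, -0.60 and -0.93, so mouse 4 differed most. H4c12 stood at 66.9, 44.1 and 31.1 CPM in EMCN+ and 101, 89.6 and 67.4 CPM in EMCN- cells (-0.89 ± 0.12, edgeR adjusted p = 0.000228). H3c13, with 113, 78.9 and 52.3 CPM against 162, 126 and 92.7 CPM, fell in each pair while the fractions overlapped, because mouse 1 was high and mouse 4 low in both. H2ac11 and H3c7 overlapped in the same way and fell by 0.66 and 0.73. Without the mouse block 0 of the histone genes passed, and 8 passed without mouse 4, against 44 and 32 without mice 1 and 2. Histone copies are near identical, so the split of reads among them is uncertain. The short noncoding RNAs without a poly(A) tail moved the same way: Rpph1, the RNA of RNase P, fell from 14455 ± 496 to 8100 ± 2437 CPM (SD, n = 3) and Rn7sk from 14340 ± 2372 to 7999 ± 1937 CPM. The part of RNA quality or capture in these falls was not tested. Rpph1 and Rn7sk no longer passed without mouse 2 (adjusted p = 0.0986 and 0.57). H3c7, Rpph1 and Rn7sk lost the call without mouse 4 (adjusted p from 0.0672 for H3c7 to 0.116 for Rn7sk). Rpph1 and Rn7sk did not pass with the length and GC correction (adjusted p = 0.0515 and 0.0758).

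**Figure D4:**
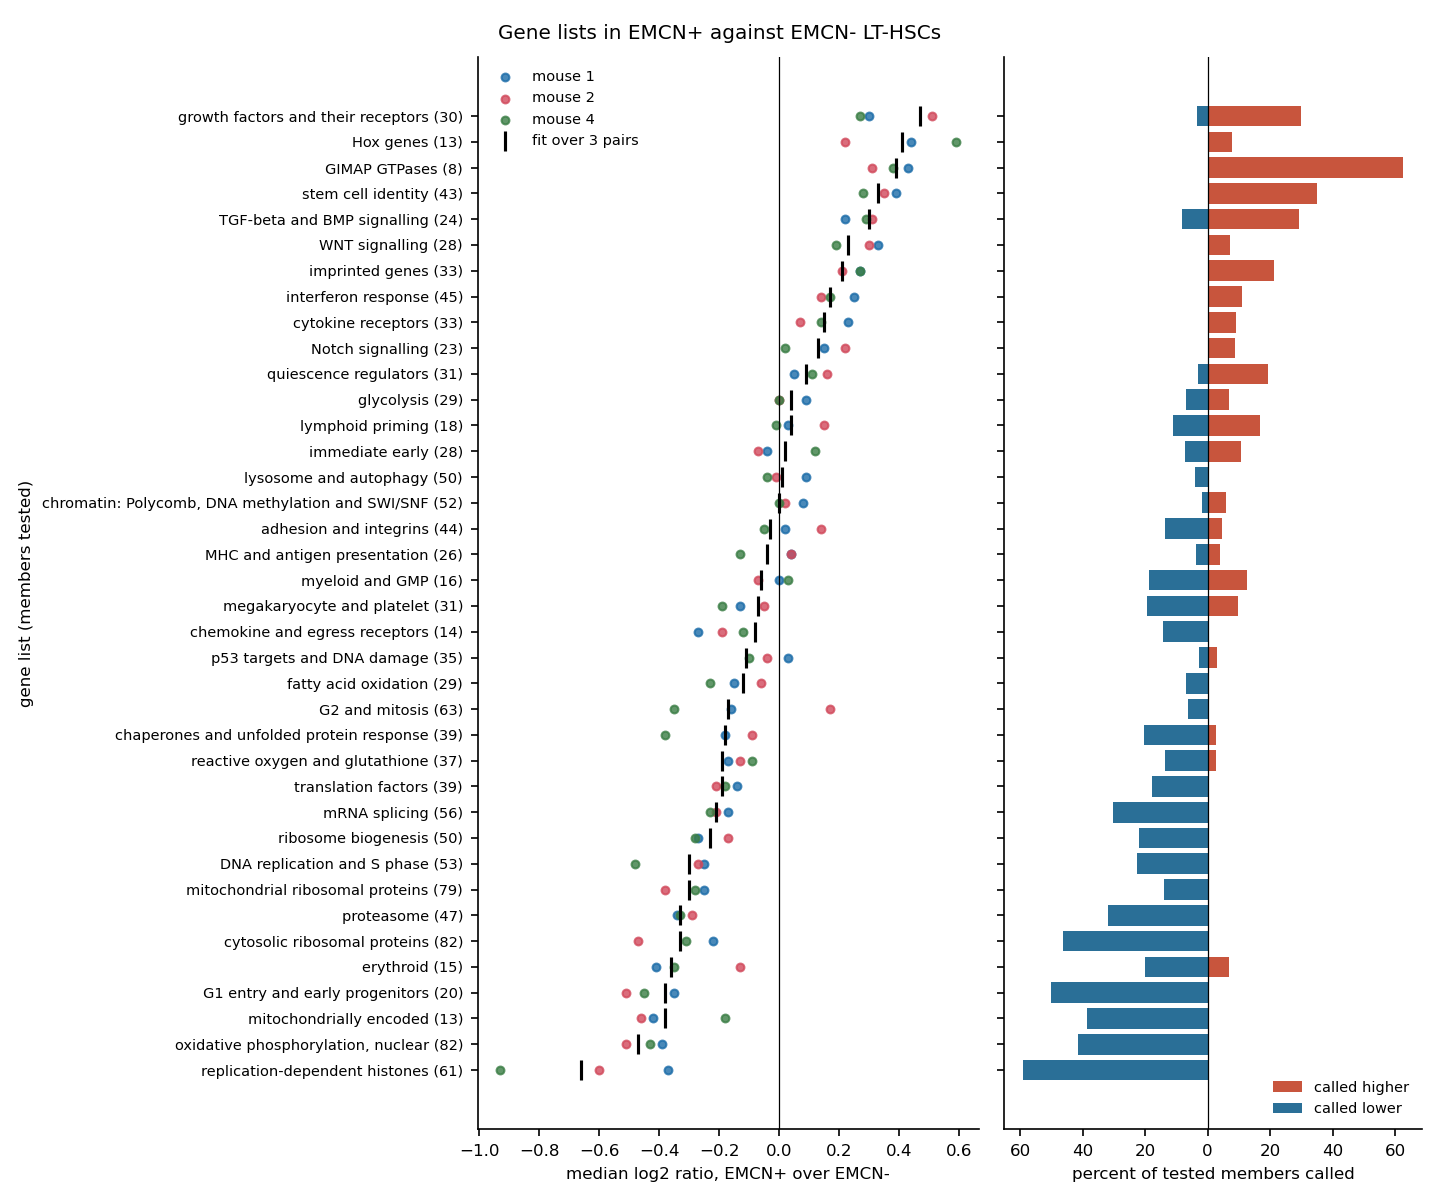
Left, the median log2 ratio of EMCN+ over EMCN- LT-HSCs over the tested members of 38 gene lists, in each mouse (coloured points) and in the fit (black bars). Right, the percent of tested members called lower (bars to the left) and higher (bars to the right); over all tested genes these are 3.93 and 2.83%. Growth factor, stem cell and GIMAP lists lie to the right, and histone, oxidative phosphorylation and ribosomal lists to the left.

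Genes of the protein-making machinery were called lower in part and by small amounts, and none of the 4 lists had a gene called higher. All 82 tested cytosolic ribosomal protein genes had a negative log2 fold change. Of them 38 fell and 0 rose (46.3% called, against 6.76% of all genes), and the median was -0.33. Rpl27 stood at 165, 146 and 131 CPM in EMCN+ and 259, 255 and 219.5 CPM in EMCN- cells of mice 1, 2 and 4, with no overlap (-0.73 ± 0.09, edgeR adjusted p = 8.36e-05). Rpl35, Rpl35a and Rps25 fell by 0.63, 0.52 and 0.57, and Rpsa and Rpl13a, among the most abundant, by 0.40 and 0.39. Of 79 mitochondrial ribosomal protein genes 11 fell and 0 rose (13.9% called), with a median of -0.30. Mrpl41 (-0.97 ± 0.19) and Mrpl12 (-0.65 ± 0.13) led them. Mrps30 and Mrps9 fell by 0.56 and 0.52. Of 50 ribosome biogenesis genes 11 fell and 0 rose (22% called), with a median of -0.23. Among them were Nop10, Npm1, Wdr12 and Nop56, with falls of 0.62, 0.44, 0.43 and 0.41. Of 39 translation factor genes 7 fell and 0 rose (17.9% called), with a median of -0.19. Eif2s1 and Eif2s2, subunits of the initiation factor that brings the first transfer RNA, fell by 0.57 and 0.46, and Eif3i and Eef1b2 by 0.46 and 0.34. Ribosomal protein genes have many processed pseudogenes that can share their reads.

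The number of these calls changed with the setting and with each mouse left out. The cytosolic ribosomal list had 22 lower calls with the length and GC correction, 3 with library totals alone and 8, 16 and 3 without mice 1, 2 and 4, while its median stayed negative at -0.22 and -0.21 under the first pair of settings. In the same order of settings the mitochondrial ribosomal list had 5, 2, 3, 6 and 0 lower calls, ribosome biogenesis had 11, 1, 1, 5 and 0, and translation factors had 7, 0, 2, 2 and 1. Rpsa, Rpl13a, Mrpl41, Mrps30, Mrps9, Npm1, Wdr12, Nop56, Eif2s1 and Eef1b2 no longer passed without mouse 1 (adjusted p from 0.0558 for Mrpl41 to 0.332 for Rpsa). Rpsa, Rpl13a, Nop56, Eif3i and Eef1b2 lost the call without mouse 2 (adjusted p from 0.0585 for Rpsa to 0.26 for Eif3i). Rpl35, Rpl35a, Rpsa, Rpl13a, Mrpl41, Mrpl12, Mrps30, Mrps9, Nop10, Npm1, Wdr12, Nop56, Eif2s2, Eif3i and Eef1b2 did not pass without mouse 4 (adjusted p from 0.0524 for Rpl35 to 0.206 for Eif3i). Rpl13a and Eef1b2 no longer passed with the length and GC correction (adjusted p = 0.152 and 0.0815). Rpl35a, Rps25, Rpsa, Rpl13a, Mrps30, Mrps9, Npm1, Wdr12, Nop56, Eif2s1, Eif2s2, Eif3i and Eef1b2 lost the call with library totals alone (adjusted p from 0.0502 for Rps25 to 0.396 for Eef1b2).

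Length moved with the direction of change over the whole table. Genes called higher had a median transcript length of 1979 bases and genes called lower of 806, against 1424 over all genes tested. Genes were ranked by transcript length and cut into 4 equal parts. Among the shortest transcripts 62 genes were called higher and 249 lower, and among the longest 152 and 47. After a correction for length and GC content these were 132 and 137 among the shortest and 102 and 104 among the longest, and 694 of the 908 genes were called in both fits. The correction removes each library's own trend with length and GC content, so a more even split follows from how it is built. It would also remove real change that goes with length. The part of length in the results was not tested beyond these values. Median lengths were 628 bases for cytosolic ribosomal protein genes, 601 for oxidative phosphorylation, 545 for histones and 1723 for stem cell identity.

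**Figure D5:**
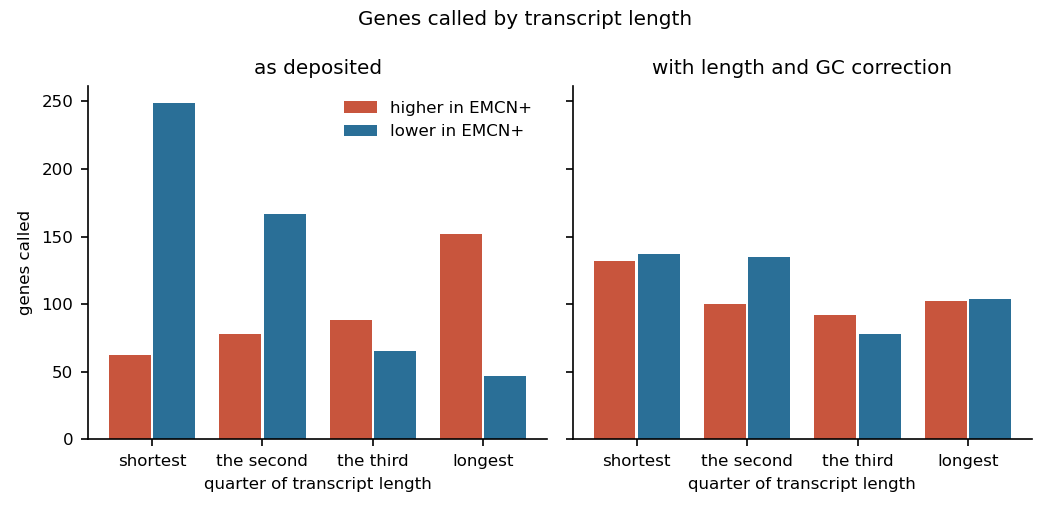
Number of genes called higher (red) and lower (blue) in EMCN+ LT-HSCs in 4 equal parts of the transcript length range by rank, with counts as deposited (left) and with a correction for length and GC content (right). The 249 lower calls of the shortest part become 137 with the correction, and the 152 higher calls of the longest part become 102.

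Oxidative phosphorylation genes of both genomes were among those called lower. Of 82 tested nuclear genes 34 fell and 0 rose (41.5% called, against 6.76% of all genes). Of the 82, 80 lay below 0 and the median was -0.47, with -0.39, -0.51 and -0.43 in mice 1, 2 and 4. Cox7b of complex IV stood at 67.2, 53.3 and 50.6 CPM in EMCN+ and 106, 98.3 and 84.7 CPM in EMCN- cells (-0.76 ± 0.11, edgeR adjusted p = 0.000275). Cox6c of the same complex and Atp5mpl of the ATP synthase fell by 0.67 and 0.71, and all 3 passed without each mouse. Uqcrb of complex III fell by 0.63 (adjusted p = 0.00107). Of the 13 protein genes of the mitochondrial genome 5 fell and 0 rose (38.5% called), with a median of -0.38. mt-Nd1 stood at 811, 728 and 925 CPM against 1256, 1097 and 1088 CPM, with no overlap (-0.49 ± 0.10, adjusted p = 0.00745). mt-Nd2, mt-Nd4, mt-Nd5 and mt-Cytb fell by 0.48, 0.41, 0.38 and 0.35. The nuclear list had 23 lower calls with the length and GC correction, 16 with library totals alone and 16, 25 and 5 without mice 1, 2 and 4. The mitochondrially encoded list had 0 lower calls without mouse 1 and 0 with totals alone. With the length and GC correction it had 3 lower calls and 1 higher, mt-Nd6, named after its value was seen (log2 fold change 0.40, edgeR adjusted p = 0.0238). The share of mitochondrial ribosomal RNA was 15.2, 13.9 and 22.1% in EMCN+ and 18.6, 17.3 and 18.7% in EMCN- cells, so its share did not move one way in the 3 pairs. mt-Nd1, mt-Nd2, mt-Nd4, mt-Nd5 and mt-Cytb did not pass without mouse 1 (adjusted p from 0.145 for mt-Nd2 to 0.417 for mt-Cytb). mt-Cytb no longer passed without mouse 2 (adjusted p = 0.158). Uqcrb, mt-Nd2, mt-Nd4, mt-Nd5 and mt-Cytb lost the call without mouse 4 (adjusted p from 0.0513 for mt-Nd2 to 0.156 for mt-Nd5). mt-Nd4 and mt-Cytb did not pass with the length and GC correction (adjusted p = 0.0596 and 0.145). mt-Nd1, mt-Nd2, mt-Nd4, mt-Nd5 and mt-Cytb no longer passed with library totals alone (adjusted p from 0.121 for mt-Nd1 to 0.391 for mt-Cytb).

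Of 29 tested glycolysis genes (13.8% called, against 6.76% of all genes) 2 rose and 2 fell, with a median of 0.04. Slc2a1, the glucose transporter GLUT1, and Hk2, a hexokinase at the head of the pathway, rose by 0.61 ± 0.16 and 0.42 ± 0.12, while Ldha and Pgk1, further down, fell by 0.46 and 0.34. Slc2a1 stood at 30.5, 30.8 and 33.5 CPM in EMCN+ and 21.2, 22.2 and 18.1 CPM in EMCN- cells, which do not overlap. Of 29 fatty acid oxidation genes Etfb and Acads fell, by 0.58 and 0.42, and 0 rose (median -0.12), so that 6.9% were called, near the share of all genes. Of 50 lysosome and autophagy genes Bnip3l, a mitophagy receptor, and Atg3 fell by 0.34 and 0.44 (median 0.01), and 4% were called, under the share of all genes. Of 37 genes of reactive oxygen and glutathione 5 fell and 1 rose (16.2% called), with a median of -0.19. Gpx1, the main glutathione peroxidase, stood at 316, 272 and 249.9 CPM in EMCN+ and 501, 404 and 338 CPM in EMCN- cells (-0.56 ± 0.09, edgeR adjusted p = 0.0013), and the peroxiredoxin genes Prdx1, Prdx2 and Prdx3 fell by 0.45, 0.39 and 0.54. Gstm1, a glutathione transferase, rose by 0.43 ± 0.12. Slc2a1, Hk2, Ldha, Pgk1, Acads, Bnip3l, Atg3, Gpx1, Prdx1, Prdx2, Prdx3 and Gstm1 lost the call without mouse 1 (adjusted p from 0.0637 for Gstm1 to 0.312 for Bnip3l). Hk2, Pgk1, Acads, Bnip3l, Atg3, Prdx1, Prdx2, Prdx3 and Gstm1 did not pass without mouse 2 (adjusted p from 0.0639 for Pgk1 to 0.276 for Acads). Slc2a1, Hk2, Ldha, Pgk1, Etfb, Acads, Bnip3l, Atg3, Prdx2, Prdx3 and Gstm1 no longer passed without mouse 4 (adjusted p from 0.0593 for Ldha to 0.214 for Pgk1). Bnip3l, Atg3 and Prdx1 lost the call with the length and GC correction (adjusted p from 0.0535 for Atg3 to 0.283 for Bnip3l). Ldha, Pgk1, Acads, Bnip3l, Atg3, Gpx1, Prdx1, Prdx2 and Prdx3 did not pass with library totals alone (adjusted p from 0.0542 for Gpx1 to 0.41 for Pgk1).

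Proteasome, chaperone and splicing genes also fell in part. Of 47 tested proteasome genes 15 fell, among them the 7 alpha ring genes, and 0 rose (31.9% called, against 6.76% of all genes). The median was -0.33. Psma7 stood at 104, 73.9 and 77.5 CPM in EMCN+ and 154, 122.8 and 129.7 CPM in EMCN- cells, with no overlap (-0.68 ± 0.10, edgeR adjusted p = 0.0003), and Psma3, Psma6 and Psma5 fell by 0.61, 0.63 and 0.60. Of 39 genes of chaperones and the unfolded protein response 8 fell and 1 rose (23.1% called), with a median of -0.18. Cct6a, Tcp1 and Cct3 encode subunits of the ring chaperonin TRiC and fell by 0.49, 0.42 and 0.42, and Hspe1, the mitochondrial chaperonin 10, fell by 0.49. Hspa1a, an inducible HSP70 gene with a near-identical neighbour, fell by 1.70 on the log2 scale, from 4.83, 10.6 and 7.46 to 1.201, 2.36 and 4.00 CPM in mice 1, 2 and 4. Ern1, the stress sensor IRE1, rose in each pair by 0.64 ± 0.10 (adjusted p = 0.00101), although the fractions overlapped, since mouse 2 was high and mouse 4 low in both. Of 56 splicing genes 17 fell and 0 rose (30.4% called), with a median of -0.21. Srsf3, a splicing regulator, fell from 268 ± 26.9 to 181 ± 25.1 CPM, and the core small nuclear ribonucleoprotein genes Snrpf, Snrpe and Lsm7 fell by 0.55, 0.68 and 0.70. Psma7, Ern1, Srsf3, Snrpf and Snrpe passed without each mouse. Without mice 1, 2 and 4 in turn the proteasome list had 5, 14 and 2 lower calls, the chaperone list 0, 11 and 0, and the splicing list 7, 14 and 4. With totals alone these lists had 6, 1 and 6 lower calls, and with the length and GC correction 12, 5 and 11. Psma3, Psma5, Cct6a, Tcp1, Cct3, Hspe1 and Hspa1a no longer passed without mouse 1 (adjusted p from 0.0608 for Cct3 to 0.22 for Hspe1). Hspa1a lost the call without mouse 2 (adjusted p = 0.164). Psma6, Psma5, Cct6a, Tcp1, Cct3, Hspe1, Hspa1a and Lsm7 did not pass without mouse 4 (adjusted p from 0.0561 for Psma6 to 0.146 for Cct3). Tcp1 no longer passed with the length and GC correction (adjusted p = 0.054). Cct6a, Tcp1, Cct3, Hspe1 and Snrpf lost the call with library totals alone (adjusted p from 0.0589 for Snrpf to 0.224 for Cct3).

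In TGF-beta and BMP signalling 7 of 24 tested genes rose and 2 fell (37.5% called, against 6.76% of all genes), with a median of 0.30. Inhba, the ligand subunit of activin A, stood at 12.5, 13.5 and 17.4 CPM in EMCN+ and 3.90, 5.70 and 4.30 CPM in EMCN- cells, with no overlap (1.61 ± 0.27, edgeR adjusted p = 0.0013). The ligand gene Tgfb1, whose product keeps stem cells dormant, went the other way and fell by 0.54 (adjusted p = 0.00482). Among receptors Bmpr2 and Eng (endoglin) rose by 0.49 ± 0.11 and 0.38 ± 0.10, and Ltbp3, a protein that stores latent TGF-beta, by 0.51 ± 0.12. Skil, a repressor of SMAD signalling, fell by 0.44. The list had 2 higher and 0 lower calls without mouse 1, 4 and 1 without mouse 2, and 0 in either direction without mouse 4. With library totals alone it had 8 and 0. The growth differentiation factor gene Gdf3 was among the largest falls, from 7.58 ± 1.91 to 2.47 ± 0.970 CPM (adjusted p = 0.027). Tgfb1, Eng, Ltbp3, Skil and Gdf3 did not pass without mouse 1 (adjusted p from 0.185 for Tgfb1 to 0.346 for Eng). Bmpr2 and Skil no longer passed without mouse 2 (adjusted p = 0.0947 and 0.229). Inhba, Tgfb1, Bmpr2, Eng, Ltbp3, Skil and Gdf3 lost the call without mouse 4 (adjusted p from 0.075 for Inhba to 0.184 for Gdf3). Tgfb1 and Skil did not pass with library totals alone (adjusted p = 0.0753 and 0.246).

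Of 23 tested Notch genes the receptor genes Notch1 and Notch2 rose and 0 fell (8.70% called, against 6.76% of all genes), with a median of 0.13. Notch1 stood at 77.2, 109 and 70.7 CPM in EMCN+ and 54.4, 48.5 and 51.4 CPM in EMCN- cells (0.72 ± 0.14, edgeR adjusted p = 0.00543), and Notch2 rose by 0.42 ± 0.10. Of 28 WNT genes 25 lay above 0, with a median of 0.23, and 7.14% were called, near the share of all genes. Tcf7l2, a transcription factor of the pathway, and Bcl9l, a beta-catenin coactivator, rose by 0.60 ± 0.14 and 0.39 ± 0.11. Of 33 cytokine receptor genes 3 rose and 0 fell (9.09% called, against 6.76% of all genes), with a median of 0.15. Among them were Il6st (the shared subunit gp130) and Il2rg (the common gamma chain), the last with 66.5, 58.7 and 53.9 CPM against 43.5, 42.8 and 43.6 CPM. Of 14 chemokine and egress receptor genes P2ry14 and Gpr171 fell, by 0.97 and 0.47, and 0 rose (14.3% called). Notch2, Bcl9l, Il6st, Il2rg and Gpr171 no longer passed without mouse 1 (adjusted p from 0.098 for Il6st to 0.397 for Bcl9l). Notch2, Tcf7l2, Il6st, Il2rg, P2ry14 and Gpr171 lost the call without mouse 2 (adjusted p from 0.0592 for Il2rg to 0.262 for P2ry14). Notch1, Notch2, Tcf7l2, Bcl9l, Il6st, Il2rg, P2ry14 and Gpr171 did not pass without mouse 4 (adjusted p from 0.0667 for Notch1 to 0.271 for P2ry14). Notch2 and Bcl9l no longer passed with the length and GC correction (adjusted p = 0.191 and 0.138). P2ry14 and Gpr171 lost the call with library totals alone (adjusted p = 0.052 and 0.167).

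Adhesion genes split. Of 44 tested members 2 rose and 6 fell (18.2% called, against 6.76% of all genes). The median was -0.03, and it was 0.09 with library totals alone and without mouse 4. Ncam2 and Jam2, a junctional adhesion molecule found on stem cells, rose by 2.16 ± 0.26 and 1.25 ± 0.28. Itga2b, which encodes CD41, the alpha subunit of the platelet integrin, stood at 30.7, 22.2 and 24.7 CPM in EMCN+ and 86.6, 56.8 and 62.8 CPM in EMCN- cells, with no overlap (-1.40 ± 0.12, edgeR adjusted p = 1.73e-06). Rap1b, a GTPase that activates integrins, stood at 150.2, 133 and 151 against 289, 182 and 229.6 CPM (-0.67 ± 0.10, adjusted p = 0.000628) and its relative Rap1a fell by 0.46. The tetraspanin gene Cd9 fell by 0.48, and Icam2, a ligand of leukocyte integrins, by 0.55. Jam2, Rap1b, Rap1a, Cd9 and Icam2 did not pass without mouse 1 (adjusted p from 0.0539 for Rap1b to 0.162 for Cd9). Rap1a, Cd9 and Icam2 no longer passed without mouse 2 (adjusted p from 0.0823 for Cd9 to 0.424 for Icam2). Jam2, Rap1b, Rap1a, Cd9 and Icam2 lost the call without mouse 4 (adjusted p from 0.0551 for Rap1b to 0.189 for Icam2). Rap1a and Icam2 did not pass with the length and GC correction (adjusted p = 0.0615 and 0.106). Rap1a, Cd9 and Icam2 no longer passed with library totals alone (adjusted p from 0.137 for Icam2 to 0.174 for Rap1a).

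Megakaryocyte and platelet genes moved both ways. Of 31 tested members 3 rose and 6 fell (29% called, against 6.76% of all genes). The median was -0.07, and it was 0.05 with library totals alone. Among those that rose were Vwf and Gucy1a1, a guanylate cyclase subunit with 73.8, 83.8 and 71.6 CPM in EMCN+ and 47.7, 46.0 and 48.5 CPM in EMCN- cells (0.69 ± 0.11, edgeR adjusted p = 0.0013). Vwf and Gucy1a1 passed without each mouse. Those that fell encode products of maturing megakaryocytes and their regulator GATA1. Pf4, platelet factor 4, stood at 5.76, 3.71 and 2.83 CPM against 22.8, 13.6 and 21.5 CPM (-2.17 ± 0.26, adjusted p = 7.14e-05), and Gata1 at 3.48, 0.926 and 2.36 against 13.2, 5.70 and 4.88 CPM (-1.89 ± 0.41). Gp5, a subunit of the platelet receptor for von Willebrand factor, fell from 7.65 ± 3.92 to 2.38 ± 0.428 CPM. Itga2b, Cd9 and Rab27b were the others. For Pf4, Gata1, Gp5 and Itga2b mouse 1 had the highest EMCN- level. The 12 markers of mature megakaryocytes in the marker list, which share Itga2b, Pf4 and Gp5 with this list, summed to 74.9 to 90.7 CPM in EMCN+ and 126 to 183 CPM in EMCN- libraries. Without these 3 called genes the other 9 markers summed to 51.6, 55.1 and 45.5 CPM in EMCN+ and 61.1, 49.1 and 42.5 CPM in EMCN- cells of mice 1, 2 and 4, which overlap. Gata1, Gp5, Cd9 and Rab27b lost the call without mouse 1 (adjusted p from 0.15 for Gata1 to 0.297 for Gp5). Cd9 and Rab27b did not pass without mouse 2 (adjusted p = 0.0823 and 0.0543). Gata1, Gp5, Cd9 and Rab27b no longer passed without mouse 4 (adjusted p from 0.0601 for Gata1 to 0.245 for Rab27b). Cd9 and Rab27b lost the call with library totals alone (adjusted p = 0.15 and 0.199).

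Mfsd2b, a transporter of sphingosine-1-phosphate in red cells and platelets, had the largest fall among the named genes, with 2.04, 1.94 and 1.41 CPM in EMCN+ and 16.0, 8.06 and 8.32 CPM in EMCN- cells (-2.51 ± 0.36, edgeR adjusted p = 0.000355). Spns3, a relative of the sphingolipid transporters, fell by 1.57 on the log2 scale with almost no spread among EMCN+ libraries (3.92 ± 0.141 CPM, SD, n = 3). Synpo2, an actin-binding protein, fell from 21.9 ± 5.17 to 6.07 ± 1.03 CPM. Tuba8, a tubulin gene, and Ccdc58 fell by 1.42 and 1.47. Slc22a3, an organic cation transporter, stood at 29.8, 20.5 and 21.9 CPM against 61.3, 53.1 and 58.0 CPM (-1.26 ± 0.13), and Muc13, a membrane mucin, at 218, 179 and 164 against 360.0, 301 and 333 CPM (-0.83 ± 0.09). Both had no overlap between fractions and passed without each mouse, Muc13 with adjusted p = 4.63e-05 over the 3 pairs. Spns3, Tuba8 and Ccdc58 did not pass without mouse 4 (adjusted p from 0.0761 for Tuba8 to 0.096 for Ccdc58).

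Among the other lineages, Runx3, a transcription factor of lymphoid cells, stood at 16.7, 15.9 and 15.5 CPM in EMCN+ and 48.9, 42.1 and 43.9 CPM in EMCN- cells. The 3 EMCN+ values were nearly equal, and the log2 fold change was -1.48 ± 0.15 (edgeR adjusted p = 7.91e-06). T and NK cell markers summed to 10.6 to 12.1 CPM in EMCN+ and 13.4 to 16.9 CPM in EMCN- libraries, with 4 of 12 at 0 in all. Without Nkg7, the one called, the other 11 summed to 8.24 to 9.96 and 7.24 to 10.6 CPM, which overlap. Of 18 tested lymphoid priming genes 3 rose and 2 fell (27.8% called, against 6.76% of all genes), with a median of 0.04. Lsp1 and Bach2 rose beside Notch1 by 0.43 ± 0.09 and 0.59 ± 0.17. Of 15 erythroid genes 1 rose and 3 fell (26.7% called), with a median of -0.36. Hemgn, a nuclear protein of red cell precursors, fell by 0.87 and Aqp1, a water channel, by 1.39, beside Gata1. Hbb-bt, an adult beta globin, rose by 1.21 ± 0.23, from 6.50, 7.86 and 6.89 to 16.8, 15.5 and 17.0 CPM in mice 1, 2 and 4, and shares sequence with its neighbour Hbb-bs. Of 16 myeloid genes 2 rose and 3 fell (31.2% called), with a median of -0.06 that was 0.06 with library totals alone. Gfi1 and Gstm1 rose, while Nkg7, a granule protein, and Lyz2, lysozyme, fell with Plac8, by 1.69 and 0.33. Granulocyte and monocyte markers, which include Lyz2, summed to 104.6 to 123.2 CPM in EMCN+ and 130.3 to 158 CPM in EMCN- libraries, and the other 15 without Lyz2 summed to 6.40 to 10.9 and 13.9 to 15.5 CPM. Erythroblast markers, which include Hbb-bt, summed to 23.1 to 26.9 CPM in EMCN+ and 19.7 to 21.03 CPM in EMCN- libraries. Without Hbb-bt the other 11 went the other way, with 6.12 to 11.4 CPM in EMCN+ and 13.17 to 13.2 CPM in EMCN- libraries. The part of such cells in these changes was not tested. Nkg7, Lsp1, Aqp1, Gata1, Gfi1, Gstm1 and Lyz2 no longer passed without mouse 1 (adjusted p from 0.0637 for Gstm1 to 0.359 for Lyz2). Nkg7, Bach2, Gstm1 and Lyz2 lost the call without mouse 2 (adjusted p from 0.104 for Gstm1 to 0.294 for Bach2). Nkg7, Lsp1, Bach2, Notch1, Hemgn, Aqp1, Gata1, Hbb-bt, Gfi1, Gstm1 and Lyz2 did not pass without mouse 4 (adjusted p from 0.0594 for Hemgn to 0.246 for Aqp1). Lyz2 no longer passed with the length and GC correction (adjusted p = 0.0565). Aqp1 and Lyz2 lost the call with library totals alone (adjusted p = 0.107 and 0.433).

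Of 45 tested interferon response genes (11.1% called, against 6.76% of all genes) 39 lay above 0, 5 rose and 0 fell, with a median of 0.17 (2, 4 and 1 rose without mice 1, 2 and 4, and 0 without the block). Gbp6, a guanylate-binding protein, stood at 151, 195 and 82.2 CPM in EMCN+ and 88.4, 129 and 40.5 CPM in EMCN- cells (0.78 ± 0.10, edgeR adjusted p = 0.000204). The fractions overlapped and the mice kept their order, with mouse 2 highest and mouse 4 lowest in both, so this rise was seen within pairs and had an adjusted p of 0.645 without the block. Gbp4, its relative with similar sequence, rose by 0.88 ± 0.16, and Irf1 and Ifitm1 rose by 0.49 ± 0.11 and 0.42 ± 0.10. Of 8 GIMAP genes, a family of GTPases of lymphocyte survival, 5 rose and 0 fell (62.5% called), with a median of 0.39 (3, 4 and 1 rose without mice 1, 2 and 4). Gimap4 stood at 16.9, 18.4 and 17.2 CPM against 3.34, 8.06 and 5.45 CPM (1.68 ± 0.26, adjusted p = 0.000755) and Gimap8 at 72.4, 78.6 and 76.6 against 38.3, 50.5 and 51.1 CPM (0.72 ± 0.12). Gimap3 and Gimap5, which resemble each other, rose by 1.71 ± 0.41 and 0.46 ± 0.13. Of 26 genes of antigen presentation Cd74 rose by 0.45 ± 0.13 and Psmb8 fell by 0.38, so that 7.69% were called, near the share of all genes. Irf1, Ifitm1, Gimap5, Cd74 and Psmb8 did not pass without mouse 1 (adjusted p from 0.0833 for Psmb8 to 0.27 for Ifitm1). Cd74 no longer passed without mouse 2 (adjusted p = 0.0929). Gbp4, Irf1, Ifitm1, Gimap4, Gimap3, Gimap5, Cd74 and Psmb8 lost the call without mouse 4 (adjusted p from 0.0656 for Gimap4 to 0.237 for Gimap5). Psmb8 did not pass with library totals alone (adjusted p = 0.324).

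In chromatin and transcription factor lists few genes passed. Of 52 Polycomb, DNA methylation and SWI/SNF genes 3 rose and 1 fell (7.69% called, near the share of all genes), with a median of 0.00. The H3K27 methyltransferase genes went opposite ways: Ezh1, which prevails in resting cells, stood at 50.5, 63.9 and 64.5 CPM in EMCN+ and 34.9, 39.7 and 35.6 CPM in EMCN- cells (0.69 ± 0.12, edgeR adjusted p = 0.00233), and Ezh2, which prevails in dividing cells, at 76.2, 62.7 and 66.7 against 106, 82.7 and 106 CPM (-0.51 ± 0.10, adjusted p = 0.00605). Neither pair of values overlapped. Cbx6, a Polycomb reader, rose by 0.47 ± 0.09, and Smarca2, an ATPase of SWI/SNF, by 0.39 ± 0.09. Of 13 tested Hox genes (7.69% called, against 6.76% of all genes) Hoxa10 rose by 0.79 ± 0.19 and 12 lay above 0, with a median of 0.41. Of 28 immediate early genes Klf6, Egr1 and Zfp36 rose and Myc and Hspa1a fell (17.9% called, against 6.76% of all genes). The median was 0.02, and -0.08 without mouse 4, with 0.58 ± 0.12 for Klf6. Of 35 p53 targets and DNA damage genes 5.71% were called, near the share of all genes. Plk2, a kinase induced by stress, rose from 3.54 ± 1.19 to 12.5 ± 2.02 CPM (1.85 ± 0.29, edgeR adjusted p = 0.000806), and H2afx, the histone that marks DNA breaks, fell by 0.70. Plk2 and H2afx passed without each mouse. Ezh2, Smarca2, Egr1, Zfp36, Myc and Hspa1a no longer passed without mouse 1 (adjusted p from 0.0633 for Hspa1a to 0.185 for Myc). Smarca2, Hoxa10, Myc and Hspa1a lost the call without mouse 2 (adjusted p from 0.0742 for Smarca2 to 0.186 for Hoxa10). Ezh1, Ezh2, Cbx6, Smarca2, Hoxa10, Klf6, Egr1, Zfp36, Myc and Hspa1a did not pass without mouse 4 (adjusted p from 0.0599 for Myc to 0.222 for Zfp36). Egr1 no longer passed with the length and GC correction (adjusted p = 0.0651). Ezh2 and Myc lost the call with library totals alone (adjusted p = 0.0993 and 0.237).

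Endothelial cells also carry EMCN, so their markers were followed. Of 26 endothelial markers 14 were tested and 4 rose, with a median of 0.52. Their summed level was 919, 1091 and 817 CPM in EMCN+ and 702, 762 and 783 CPM in EMCN- cells of mice 1, 2 and 4, higher in EMCN+ cells of each pair and closest in mouse 4. Most of that sum came from Mmrn1, Cd93 and Tie1, which stem cells are also known to express. Without the 4 called markers the other 22 summed to 868, 1038 and 767 CPM against 680.3, 740.1 and 758 CPM. Ramp2, a coreceptor of adrenomedullin, rose by 2.91 ± 0.52, with 58, 57 and 29 counts in EMCN+ and 3, 4 and 4 counts in EMCN- cells. Rasip1 and Clec14a, both of vessel formation, rose by 1.90 ± 0.43 and 1.31 ± 0.38, and Emcn, itself the gene of the sort, was the fourth. Cdh5, the cadherin that defines endothelium, had 10, 8 and 4 counts in EMCN+ and 2, 0 and 1 counts in EMCN- cells, and Cldn5 had 7, 16 and 12 counts against 0 in all 3. Lyve1 and Gpihbp1 were at 0 in all 6 libraries. The part of endothelial RNA in the genes called higher was not tested. Clec14a did not pass without mouse 1 (adjusted p = 0.141). Rasip1 and Clec14a no longer passed without mouse 2 (adjusted p = 0.121 and 0.0572). Ramp2, Rasip1, Clec14a and Emcn lost the call without mouse 4 (adjusted p from 0.0578 for Emcn to 0.249 for Clec14a). Clec14a did not pass with the length and GC correction (adjusted p = 0.0545).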

How the data were processed

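Reads of bulk RNA from 6 libraries were trimmed with cutadapt and quantified with Salmon by the authors, per the submitters' processing notes; not given in the sources used here are the versions, the transcript annotation and the step from transcripts to genes. The authors deposited estimated counts for 54347 genes, already whole numbers, with no normalization. The labels give polyA RNA as the molecule and a stranded total RNA kit for low input, and the library type was not settled further. The deposited counts covered all 11 libraries of the series, and no column of a sample outside the series was present. A 4th EMCN- library had been removed by the submitters for quality.

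Genes were kept by filterByExpr (minimum count 10) and scaled by TMM. The quasi-likelihood test of edgeR 4.0.16 (R 4.3.3), robust, with mouse and fraction as terms, gave log2 fold changes of EMCN+ over EMCN- cells, their standard errors as the size of the change over the root of F, and p-values adjusted by Benjamini-Hochberg over 13435 genes at 0.05. Ratios of single mice used log2 CPM with a prior count of 2. Mice are separate animals, and the p-values rest on the spread between the 3 pairs after edgeR drew each gene's spread towards a trend over all genes. The pairing comes from the mouse number in the labels. Deviations from the fraction means correlated at 0.362, 0.178 and 0.285 between the libraries of mice 1, 2 and 4, and at -0.264 to -0.018 between libraries of different mice. These deviations sum to 0 within a fraction, so the negative values partly follow from the positive ones. The test was tested on simulated counts of this paired comparison, where 147 of 200 changed genes and 25 unchanged genes were called. The share of false calls, 14.5%, was well above the nominal 5%.

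The comparison, the members and the 39 gene lists were chosen with earlier results of these data known. Named genes are the surface genes of the sort, the 12 largest changes per direction at a mean of 5 CPM or more with 1 sign in all pairs, the 5 smallest p and the 6 highest levels per direction, and in each list and direction at most 4 members that were called. Predicted genes were left out of that rule. Other named genes, among them Mecom, Procr, Insr, Igf1r, Fgfr3, Neo1, Socs2, Rab27b, Rap1a, Icam2, Nkg7, Ramp2, Rasip1, Clec14a and the helicase genes, were chosen after their values were seen. Annotation (symbols, lengths, GC content, positions) was GENCODE M21 for GRCm38, matched to 54094 gene identifiers without version (53307 with it), and promoters from RefSeq. A fold change compares a gene with itself; levels of different genes were not compared. The alternatives were RLE, upper-quartile and total scaling, 2 other filters, DESeq2 1.42.0, limma 3.58.1 with voom, no robust estimation, no mouse block, all 7 LT-HSC or all 11 libraries, protein-coding genes alone, a length and GC correction, thinned counts and leaving out each mouse.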

Additional observations from a re-analysis of the deposited data

How the results depend on the processing

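Scaling by RLE or upper-quartile factors, the other filters on low counts, voom, thinning and the length and GC correction each left the number of called genes within 1.5 times the main 908 (698 to 1097 genes). DESeq2 with the mouse in the design called 432 genes, 173 higher and 259 lower, of which 406 were among the 908. Protein-coding genes alone gave 1366 calls, 638 of them higher. Library totals alone gave 571 higher and 161 lower. The 3-pair test without robust estimation gave 634 calls. Without the replicate block the 6 libraries gave 185 calls (99 higher and 86 lower), all of them among the 908, and all 7 LT-HSC libraries gave 269 (151 and 118). With the replicate block over all 11 libraries, where the spread is also estimated from progenitors, 374 genes were called (135 and 239), and Emcn differed by 0.81 on the log2 scale with an adjusted p of 0.178. Leaving out each mouse in turn gave 141 to 674 calls, 77 to 293 higher and 64 to 381 lower, and a change of Emcn of 0.81 to 0.97. Among the 168 named genes other than Emcn none that was called, with 3 pairs or in an alternative, changed direction under any of the 17 alternatives that gave it a value. Of them 107 lost their call without mouse 4, 75 without mouse 1, 40 without mouse 2, 100 without the block, 49 with library totals, 45 with DESeq2 and 16 with the length and GC correction. In the smallest library 3 counts equal 0.861 CPM, and levels near or under this rest on few counts. Examples are Fgf3 and Cd48 in EMCN+ cells, and H19, Meg3 and Igf2 in some EMCN- libraries. With 3 pairs, a gene's own spread has 2 residual degrees of freedom, and 2 pairs leave 1. The p-values therefore also lean on spread pooled across genes.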

Other observations

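Over all 13435 tested genes the log2 ratios of any pair of mice correlated weakly, with Pearson's r of 0.23 to 0.25 across genes, and at 0.26 to 0.36 over the 7022 genes with at least 20 CPM, as a description in which genes are not independent replicates. The standard deviation of the ratios over genes was 0.62, 0.59 and 0.66 in mice 1, 2 and 4, and 0.39, 0.37 and 0.40 at 20 CPM or more.

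The 4 genes with the largest differences were at 0 in all 3 libraries of a fraction, were chosen after their values were seen, and are predicted genes or short RNAs. For pseudogenes and repeated short RNAs the placing of reads is uncertain. Gm13370, a processed pseudogene, stood at 43.1, 42.8 and 6.83 CPM in EMCN+ cells of mice 1, 2 and 4 and at 0 in EMCN- cells. LOC115488991, listed as a small nuclear RNA, stood at 31.3, 5.56 and 46.6 CPM in EMCN+ cells and at 0 in EMCN- cells. Gm10163, a processed pseudogene, stood at 22.8, 3.54 and 35.3 CPM in EMCN- cells and Gm14440 at 9.10, 19.5 and 22.96 CPM, both with 0 in EMCN+ cells. Within the fraction that held them, Gm13370, LOC115488991 and Gm10163 varied several-fold between mice.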
